A study of Mus musculus with 2 samples.

Results

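Dbp, Tef and Nfil3 are the transcription factors that act on the D-box, a short promoter element of the circadian clock, and their transcripts were followed here as 3 genes of the 33757 features counted. They were taken by gene symbol from the table of counts per cell. The cells were single fibroblasts of the line NIH3T3-Rev-VNP1-H2B-iRFP, an NIH3T3 derivative with a Venus reporter named for Nr1d1 and a histone H2B tagged with the near-infrared protein iRFP, profiled by full-length FLASH-seq. All cells came from confluent, unsynchronized cultures (95% confluency, about 5 days after seeding). They were sorted by Venus brightness into 4 gates, from gate 1 (dimmest) to gate 4 (brightest), on each of 2 plates. The sorting record placed only the high iRFP sort on plate 1 and only the low iRFP sort on plate 2, so plate and iRFP sort cannot be told apart. All cells carry the same reporters, and the labels do not say whether the line is 1 clone or what the reporter construct contains.

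Dbp and Tef belong to the PAR family of basic leucine zipper proteins and activate transcription from D-boxes. Nfil3, also called E4BP4, binds the same element and represses it. In the textbook clock, Dbp is switched on through E-boxes by the Clock and Bmal1 (Arntl) pair, while Nfil3 is held down through ROR elements by the Rev-erb proteins Nr1d1 and Nr1d2, so that activators and repressor peak at opposite times of day.

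The promoters are shown because the elements named above recur in the results. Each sequence is the RefSeq stretch of 250 bases just before an annotated start, in the direction of the gene, on GRCm38.p6, which is older than the build named for the counts. Capitals mark an exact match, on either strand, to the D-box forms TTATGTAA or TTACGTAA, the E-box CACGTG or the ROR core element AGGTCA. Per3 is included because it followed both activators across cells. The Dbp window on chromosome 7 (45704997 to 45705246, plus strand) held none of the 4. The 2 Tef windows on chromosome 15 (81802423 to 81802672 and 81811164 to 81811413, plus strand) each held 1 E-box. The Nfil3 window on chromosome 13 (52981040 to 52981289, minus strand) held a ROR core element on its reverse strand, starting 12 bases before the start. The Per3 window on chromosome 4 (151044666 to 151044915, minus strand) held 2 D-boxes, starting 205 and 158 bases before the start.
Dbp: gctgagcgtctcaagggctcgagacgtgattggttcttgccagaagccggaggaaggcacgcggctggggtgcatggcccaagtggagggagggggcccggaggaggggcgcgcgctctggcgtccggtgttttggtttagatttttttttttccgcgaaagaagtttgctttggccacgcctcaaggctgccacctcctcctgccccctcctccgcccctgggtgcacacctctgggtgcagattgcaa
Tef, upstream start: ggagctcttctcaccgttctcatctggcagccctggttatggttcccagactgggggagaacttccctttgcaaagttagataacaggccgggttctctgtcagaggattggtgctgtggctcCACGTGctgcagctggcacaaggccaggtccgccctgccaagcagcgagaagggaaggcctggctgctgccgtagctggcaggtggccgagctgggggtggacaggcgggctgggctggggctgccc
Tef, downstream start: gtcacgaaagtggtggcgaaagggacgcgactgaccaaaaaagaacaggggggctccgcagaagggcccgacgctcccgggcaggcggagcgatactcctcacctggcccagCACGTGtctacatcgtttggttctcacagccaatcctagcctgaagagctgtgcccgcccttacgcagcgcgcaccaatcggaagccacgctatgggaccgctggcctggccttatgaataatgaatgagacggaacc
Nfil3: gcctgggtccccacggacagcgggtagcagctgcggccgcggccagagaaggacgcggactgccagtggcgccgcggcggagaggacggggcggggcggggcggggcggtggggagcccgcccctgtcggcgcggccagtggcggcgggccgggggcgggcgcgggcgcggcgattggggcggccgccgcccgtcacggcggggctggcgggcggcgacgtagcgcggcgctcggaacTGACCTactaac
Per3: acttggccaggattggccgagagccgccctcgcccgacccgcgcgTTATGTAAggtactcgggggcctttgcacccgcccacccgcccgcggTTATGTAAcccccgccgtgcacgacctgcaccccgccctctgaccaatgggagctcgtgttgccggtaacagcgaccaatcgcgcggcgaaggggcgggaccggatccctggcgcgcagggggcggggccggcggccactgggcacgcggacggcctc
Among 32851 windows of the same length, TTATGTAA occurred in 0.819%, TTACGTAA in 0.113%, CACGTG in 6.02% and AGGTCA in 14% of them. TTATGTAA occurred at least 2 times in 6 of them, or 0.0183%. A match is a description of letters and does not show binding. Of the 15 D-box target genes listed for the comparisons that follow, 13 had a window and only Per3 had a D-box match in it. The windows of Tef, Pik3ip1, Itm2b and BC028528, which also followed Dbp or Tef across cells, held no D-box match.

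The comparisons rest on 762 of 768 cells, 383 on plate 1 and 379 on plate 2, with 151173 to 1618022 counts each. Counts were summed per plate and gate into 8 sums of 76042157 to 86612194 counts, and levels are given as CPM, the counts per 1000000 counts of those sums, with TMM scaling. The labels do not say that the plates came from separate cultures, so p-values measure only the spread between these plates and gates. All 8 fibroblast markers exceeded 1 CPM over all cells, with a summed level of 22206 to 28341 CPM per sum. The other-cell-type list summed to 4.10 to 8.20 CPM, and of its 8 counted genes Cdh1, the epithelial cadherin, exceeded 1 CPM, at 4.76 CPM with a read in 331 of 762 cells. Cd68, a macrophage marker, had a read in 85 cells, and Epcam and Ptprc, defining markers of epithelial and blood cells, in 1 cell each. Nr1d1 rose from 65.6 ± 2.8 CPM (SD, n = 2 plates) in gate 1 to 1188 ± 91 CPM in gate 4, in the order of the gates.

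The activators rose and the repressor fell from the dimmest to the brightest gate. Dbp stood at 18.2, 21.5, 50.8 and 72.4 CPM in gates 1 to 4 of plate 1 and at 18.9, 22.9, 56.4 and 79.3 CPM on plate 2. Tef stood at 41.3, 58.4, 100.1 and 128.8 CPM on plate 1 and at 55.9, 67.7, 119.5 and 152.4 CPM on plate 2. For both activators every sum of gates 3 and 4 lay above every sum of gates 1 and 2, and the plates gave the same order of gates. Nfil3 stood at 21.6, 19.5, 16.8 and 10.7 CPM on plate 1 and at 16.0, 20.3, 7.46 and 7.07 CPM on plate 2. Its brightest-gate sums lay below all sums of gates 1 and 2, but plate 1's gate 3 overlapped the range of the dim gates.

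Gate 4 exceeded gate 1 by 3.98-fold on plate 1 and 4.19-fold on plate 2 for Dbp, and by 3.12-fold and 2.73-fold for Tef. For Nfil3 the dimmest gate exceeded the brightest by 2.01-fold and 2.26-fold. The trend over the gates was 0.74 ± 0.02 log2 per gate (SE) for Dbp (adjusted p = 6.33e-06, edgeR quasi-likelihood test with plate as a block, Benjamini-Hochberg over 18430 genes). It was 0.54 ± 0.02 log2 per gate for Tef (edgeR adjusted p = 4.01e-05) and -0.41 ± 0.08 for Nfil3 (edgeR adjusted p = 0.0142). All 3 genes passed the filter on low counts and were called, against 15.4% of all genes tested (6.78% higher and 8.64% lower). The Nfil3 call was lost without the plate block (edgeR adjusted p = 0.0655, -0.39 log2 per gate), without gate 4 (0.346, -0.34 log2 per gate), without plate 1 (0.283) and without plate 2 (0.0571). Without plate 1 the calls of Dbp and Tef were lost too (edgeR adjusted p = 0.0610 and 0.0523).

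**Figure D1:**
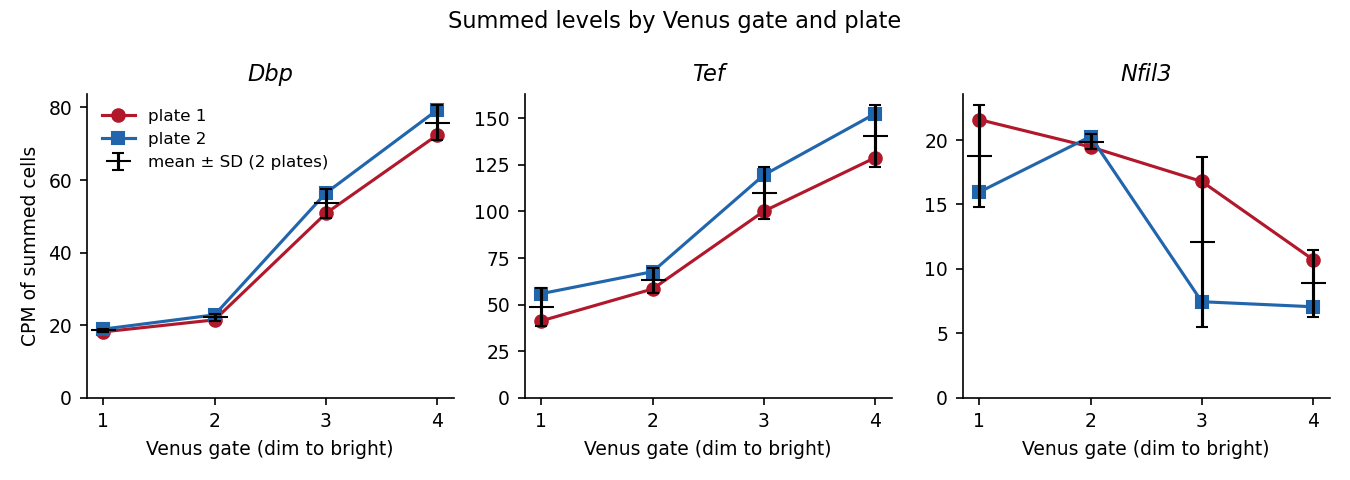
CPM of the summed cells (y axis, linear from 0) against Venus gate (x axis) for Dbp, Tef and Nfil3, with 1 line per plate and the mean ± SD of 2 plates in black. Dbp and Tef climb on both plates with their largest rise between gates 2 and 3, while Nfil3 declines, with its plates furthest apart in gate 3 (16.8 and 7.46 CPM).

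The estimates differed between the gate-to-gate steps. Dbp changed by 0.26 ± 0.07 log2 (SE) from gate 1 to 2, by 1.27 ± 0.07 from gate 2 to 3 and by 0.50 ± 0.06 from gate 3 to 4. The edgeR adjusted p-values were 0.156, 0.000514 and 0.0396, so the first step was not called. Tef changed by 0.39 ± 0.07, 0.80 ± 0.07 and 0.36 ± 0.07 log2, with edgeR adjusted p-values of 0.0729, 0.0085 and 0.0834, so the step from gate 2 to 3 was the one called. That call was lost without the plate block (adjusted p = 0.390), and the outer Tef steps were called with DESeq2, without the low-count filter and with thinned cells. The last Dbp step was not called without the block (adjusted p = 0.131). Nfil3 changed by 0.12 ± 0.24, -0.81 ± 0.24 and -0.40 ± 0.25 log2, with edgeR adjusted p-values of 0.886, 0.426 and 0.491, and none of its steps was called. All genes were called at rates of 0.271% (0.147% higher), 0.0651% (0.0434% higher, 0.0217% lower) and 0.26% (0.141% higher) at the 3 steps. On plate 2 almost the whole fall of Nfil3 lay between gates 2 and 3 (-1.44 log2), whereas on plate 1 the larger change was between gates 3 and 4 (-0.65 log2, against -0.21 from gate 2 to 3).

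The step from gate 2 to 3 was called for 12 of 18430 genes, and Dbp and Tef were among them. The others included YFP, the reporter sequence, the Rev-erb genes Nr1d1 and Nr1d2, the period gene Per3 and the clock activator Arntl. The rest were Cyp51 (0.37 log2) and Erg28 (0.49), which rose, and Mmp11 (-0.85), Rnase4 (-1.21) and Kcnip4 (-2.93), which fell. Arntl fell at that step by 1.20 ± 0.09 log2 (SE, edgeR adjusted p = 0.00504). Nr1d1 itself spread its rise over all 3 steps, with 1.73 ± 0.06, 1.31 ± 0.06 and 1.13 ± 0.06 log2, and recorded Venus fluorescence rose by 1.43, 1.55 and 2.15 log2 on plate 1 and by 1.51, 1.61 and 1.94 on plate 2. Dbp thus rose about as much as Nr1d1 between gates 2 and 3 and much less on either side. A contrast of the middle step against the mean of the outer steps, chosen after the levels were seen, was 0.89 ± 0.10 log2 for Dbp. It was not called over all genes by edgeR (adjusted p = 0.421). For Dbp, DESeq2 gave 6.5e-08 and edgeR without the low-count filter 0.017, so this call depends on the filter and the tool. The same contrast was 0.43 ± 0.11 log2 for Tef and -0.68 ± 0.38 log2 for Nfil3. Neither was called by edgeR (adjusted p = 0.880 and 0.938), which called 0 of all genes for it. Curvature, the mean log2 level of the outer gates less that of the inner gates in the same fit, was called for none of the 3 genes (edgeR adjusted p = 0.238 for Dbp, 0.928 for Tef and 0.504 for Nfil3, against 0.651% of all genes called).

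**Figure D2:**
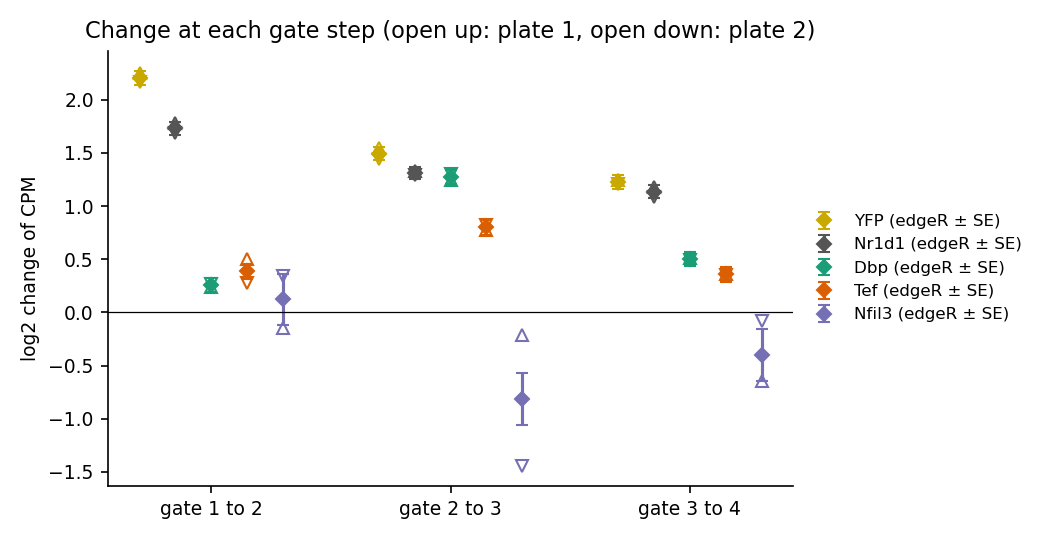
Log2 change of CPM (y axis) at each of the 3 gate steps (x axis) for the reporter sequence YFP, Nr1d1, Dbp, Tef and Nfil3. Filled diamonds are edgeR estimates ± SE and open triangles are single plates. Dbp and Tef have their highest value at the step from gate 2 to 3 (1.27 and 0.80), YFP and Nr1d1 at the step from gate 1 to 2, and the Nfil3 plates lie far apart.

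Per length, the order of the 3 genes turned over along the gates. With merged exon lengths of 2.993 kb for Dbp, 7.867 kb for Tef and 2.026 kb for Nfil3 (GENCODE M21), Nfil3 was highest in gate 1, at 9.27 ± 1.96 CPM per kb (SD, n = 2 plates). Dbp and Tef stood there at 6.20 ± 0.18 and 6.18 ± 1.31 CPM per kb, within each other's spread. In gate 4 the order was Dbp at 25.3 ± 1.6, Tef at 17.9 ± 2.1 and Nfil3 at 4.39 ± 1.28 CPM per kb, with no overlap between plates. Isoform use could shift these lengths, so the order within gate 1 is a description.

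The ratios of the summed counts, which need no scaling between cells, followed the same direction. They come from the same 8 sums as the trends above, so their tests are no separate support for them. Dbp over Nfil3 was 0.842, 1.10, 3.03 and 6.75 in gates 1 to 4 of plate 1 and 1.19, 1.13, 7.56 and 11.2 on plate 2. Its slope was 1.15 log2 per gate (exact two-sided permutation of gates within plates, 576 orders, p = 0.00694, 0.0104 adjusted over 3 ratios). Tef over Nfil3 rose from 1.91 to 12.01 on plate 1 and from 3.50 to 21.6 on plate 2, with a slope of 0.95 log2 per gate (exact permutation p = 0.00694, adjusted 0.0104). Dbp over Tef changed less, from 0.440 to 0.562 on plate 1 and from 0.339 to 0.520 on plate 2, with a slope of 0.19 log2 per gate (exact permutation p = 0.0347, adjusted 0.0347). The smallest p these orders allow is 0.00347, and 1 plate alone could not go below 0.0833. Both ratios over Nfil3 were higher in each sum of gates 3 and 4 than in each sum of gates 1 and 2.

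The plates differed in level as well as in sort. Over all gates, against the plain plate total, Dbp had 40.0 CPM on plate 1 (exact Poisson 95% interval 39.3 to 40.7) and 45.9 CPM on plate 2 (45.2 to 46.7). Tef had 80.9 (79.9 to 81.9) and 102.0 CPM (100.9 to 103.1), and Nfil3 had 16.7 (16.3 to 17.2) and 12.7 CPM (12.4 to 13.1). These intervals cover counting error only, since copies of 1 molecule made by PCR cannot be recognised without molecular identifiers, and no test was made with 1 plate per sort. Tef was higher on plate 2 in all 4 gates, by 0.21 to 0.44 log2, and Dbp by 0.06 to 0.15 log2. Nfil3 was lower on plate 2 in gates 1, 3 and 4 and 0.06 log2 higher in gate 2. A difference in trend between the plates was not called for any of the 3 genes (edgeR adjusted p = 0.989 for Dbp, 0.983 for Tef and 0.986 for Nfil3). That fit called 0 genes (0%), with 965 at an unadjusted p under 0.05.

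In single cells Tef and Dbp were nearly always found in bright cells, and Nfil3 dropped out of many of them. At least 1 Tef read was found in 94.7% to 100% of cells in every plate and gate. Dbp had a read in 82.1%, 92.7%, 99.0% and 99.0% of cells in gates 1 to 4 of plate 1 and in 77.9%, 93.6%, 97.9% and 100% on plate 2. Nfil3 had one in 81.1%, 87.5%, 70.8% and 58.3% of cells on plate 1 and in 74.7%, 81.9%, 38.5% and 38.3% on plate 2. The exact binomial 95% interval for Nfil3 was 60.7% to 79.7% in gate 3 of plate 1 and 28.8% to 49.0% in gate 3 of plate 2. These intervals cover counting error over the cells of 1 plate each, and no difference between the plates was tested. With every cell thinned to 300000 counts (754 cells, the 8 left out all from gate 2 of plate 2) the Nfil3 shares were 77.9%, 87.5%, 66.7% and 47.9% on plate 1 and 65.3%, 77.9%, 36.5% and 36.2% on plate 2. Gate 2 had the highest share and gate 4 the lowest on both plates, with and without thinning.

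The fall of Nfil3 from gate 1 to gate 4 lay mostly in the share of cells with a read on plate 2, and in both that share and the level of those cells on plate 1. Among cells with a read, Nfil3 averaged 25.2, 21.4, 22.7 and 18.3 CPM in gates 1 to 4 of plate 1 and 20.8, 26.9, 19.2 and 19.6 CPM on plate 2. A low level that is missed in part of the cells and a true absence cannot be told apart here. Dbp differed in this respect. Among cells with a read it averaged 21.4 CPM in gate 1 and 74.7 CPM in gate 4 of plate 1, and 24.7 and 81.4 CPM on plate 2. Median Dbp per cell rose from 9.63 to 66.9 CPM on plate 1 and from 10.2 to 78.2 CPM on plate 2, and median Tef from 33.1 to 127.0 CPM and from 45.1 to 153.6 CPM.

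The relative spread between cells narrowed for the activators and widened for the repressor. The coefficient of variation of Dbp across cells was 1.72 in gate 1 and 0.603 in gate 4 on plate 1, and 1.27 and 0.541 on plate 2. That of Tef was 0.796 and 0.452 on plate 1 and 0.897 and 0.373 on plate 2. That of Nfil3 was 0.931 and 2.00 on plate 1 and 1.28 and 3.24 on plate 2. In gate 4 of plate 2, 10 of 94 cells held 77.0% of all Nfil3 reads, and the highest cell reached 211 CPM while the median was 0. Counting noise is part of each of these values and moves with the mean level, and its part was not tested.

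**Figure D3:**
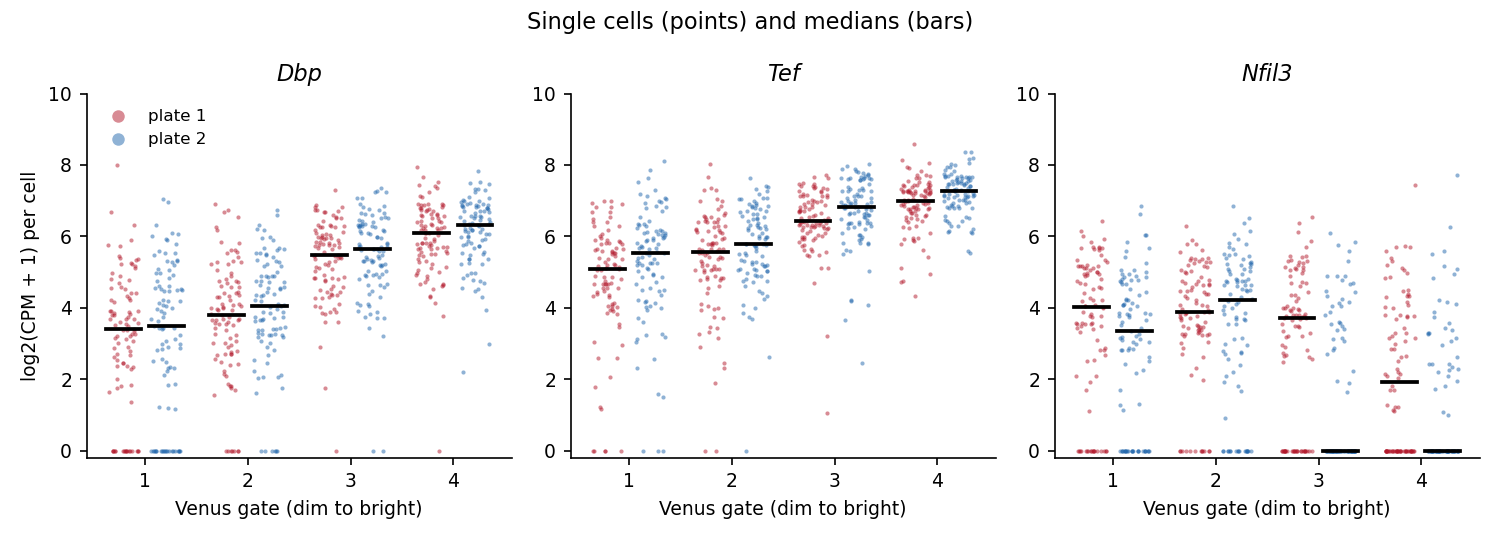
Each point is 1 cell, with log2(CPM + 1) on the y axis against Venus gate and plate on the x axis, and black bars are medians. Cells at 0 on the y axis have no read. The Dbp and Tef clouds shift upward as a whole from gate 2 to gate 3, while for Nfil3 the row of cells at 0 fills up in gates 3 and 4 and the medians of plate 2 reach 0.

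Most cells held activator and repressor transcripts at once. Reads of all 3 genes were found in 455 of 762 cells, and both activators without Nfil3 in 247. Nfil3 without Dbp was found in 46 cells, with 15 in gate 1 and 6 in gate 2 on each plate, and 40 of the 46 had Tef reads. Only 6 cells lacked both activators. In gate 4 of plate 2, 36 of 94 cells held all 3 and 58 held the activators alone.

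Within gates, where the sort has already narrowed the Venus range, Dbp and Tef went together and each went against Nfil3. These relations are Spearman correlations across the cells of 1 plate and gate, given as descriptions with no p, and all genes in a block share the same cells and depths. Dbp with Tef gave 0.354, 0.550, 0.536 and 0.477 in gates 1 to 4 of plate 1 and 0.562, 0.454, 0.549 and 0.501 on plate 2 (median of 8 blocks 0.519). Dbp with Nfil3 gave -0.202, -0.239, -0.274 and -0.472 on plate 1 and -0.194, -0.061, -0.334 and -0.129 on plate 2 (median -0.221). Tef with Nfil3 gave -0.232, -0.362, -0.029 and -0.296 on plate 1 and -0.092, -0.021, -0.147 and -0.108 on plate 2 (median -0.128). The sign was the same in 8 of 8 blocks for each pair, but the values against Nfil3 were weak in several blocks. With a stricter cell filter, which kept 758 cells, Tef with Nfil3 was 0.067 in gate 2 of plate 2 and negative in 7 of 8 blocks. Dbp with Nfil3 was then -0.004 in that block and stayed negative in 8 of 8.

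The total count and Venus changed these medians little, and the values against Nfil3 were less even among cells with reads of both genes. Given the total count per cell, the medians were 0.513, -0.218 and -0.124 for the 3 pairs. Given the recorded Venus fluorescence they were 0.502, -0.207 and -0.120, with 1 of 8 blocks positive for Tef with Nfil3. The number of genes detected per cell was not held fixed. It had a median correlation of -0.167 with Dbp (negative in 7 of 8 blocks) and -0.081 with Tef (negative in 5 of 8). With Nfil3 that median was 0.150 (positive in 6 of 8), and its part in these relations was not tested. In cells thinned to equal depth, Dbp with Nfil3 stayed negative in 7 of 8 blocks and Tef with Nfil3 in 6 of 8. Among cells with a read of both genes, Dbp with Nfil3 was negative in 5 of 8 blocks (median -0.174, with -0.051 over plate 1 and -0.260 over plate 2) and Tef with Nfil3 in 6 of 8 (median -0.081). Over whole plates, with the gates mixed, the values were larger, at 0.720 and 0.728 for Dbp with Tef and at -0.389 and -0.412 for Dbp with Nfil3.

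**Figure D4:**
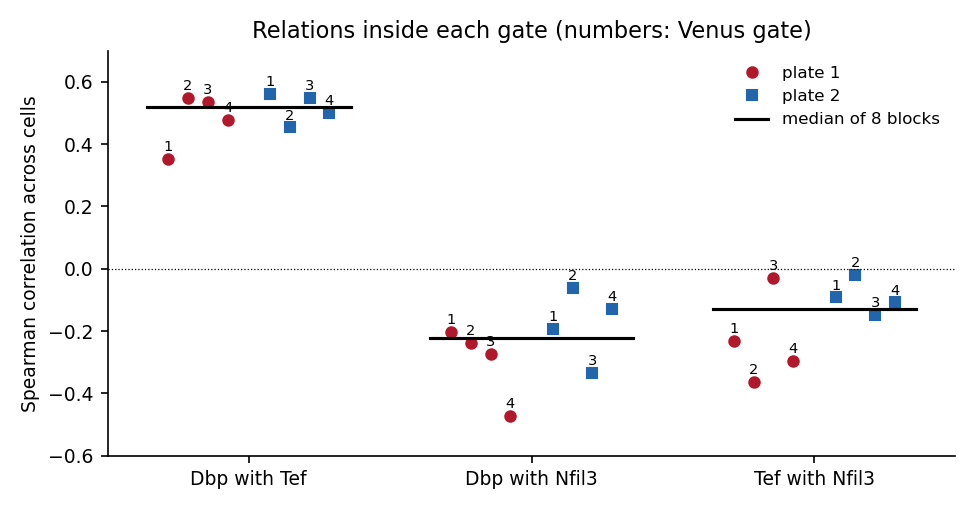
Spearman correlation across cells (y axis) for each pair of genes (x axis), 1 point per plate and gate with the gate number beside it and the median of 8 blocks as a bar. All 8 values of Dbp with Tef lie between 0.354 and 0.562, and all 16 values against Nfil3 lie below 0, some of them close to it.

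The same relation can be read as shares of cells. Cells of each block were split at the middle rank of Dbp, and Nfil3 had a read in 289 of 380 cells of those ranked lower (76.1%) and in 217 of 382 of those ranked higher (56.8%). The share was lower in the cells with more Dbp in 8 of 8 blocks and the mean Nfil3 level in 7 of 8. The widest gap was in gate 4 of plate 1, at 77.1% against 39.6%, with mean Nfil3 of 17.5 and 3.85 CPM. Split by Tef, the shares were 71.8% and 61.0%, lower in 8 of 8 blocks, with the mean level lower in 5 of 8. After thinning the shares were 69.1% and 54.5% for the Dbp split, lower in 7 of 8 blocks.

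Nr1d1 and the reporter transcript followed Dbp within the brighter gates but not within the dimmest. Dbp with Nr1d1 was -0.120 and -0.023 in gate 1 of plates 1 and 2, and 0.121 to 0.452 in the 6 blocks of gates 2 to 4. Dbp with the reporter sequence YFP was -0.152 and -0.303 in gate 1 and 0.146 to 0.445 in gates 2 to 4. Tef with Nr1d1 had a median of 0.006 and was positive in 4 of 8 blocks. Nfil3 with Nr1d1 had a median of -0.134 and was negative in 7 of 8. Arntl, the activator that peaks opposite to Nr1d1, was negative with Dbp (median -0.266) and with Tef (median -0.270) in 8 of 8 blocks, but with Nfil3 it was positive in 5 and negative in 3.

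The genes that followed each factor across cells were sought among 10585 other features with a read in at least 50% of cells. With Dbp, 626 (5.91%) were positive and 803 (7.59%) negative in all 8 blocks. With Tef these were 351 (3.32%) and 408 (3.85%), and with Nfil3 607 (5.73%) and 468 (4.42%). The 5 highest and 5 lowest medians are named for each. They were picked for these values, so the correlations that follow are descriptions.

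Dbp was followed most closely by Tef (0.52), by Per3 (0.42, from 0.170 to 0.562 over blocks), the period gene whose promoter holds the pair of D-boxes shown above, and by Slc6a6 (0.37), the taurine transporter. Pik3ip1 (0.33), an inhibitor of PI3 kinase, and Itm2b (0.33), a membrane protein, came next. Against it ran Ddx39 (-0.35), an RNA helicase, Ppa1 (-0.33), a pyrophosphatase, Bcat1 (-0.33), the cytosolic branched-chain amino acid transaminase, Anxa3 (-0.33), an annexin, and Ybx3 (-0.33), a cold shock domain protein. The direction within gates was not always the direction along them. Pik3ip1 and Itm2b went with Dbp within gates and fell along the gates (-0.17 ± 0.03 and -0.25 ± 0.01 log2 per gate, SE, edgeR adjusted p = 0.00717 and 0.000315). After thinning, Anxa3 was negative in 7 of 8 blocks and the other 9 genes kept their sign in all 8. Ddx39, Ppa1 and Bcat1 ran against Dbp within gates and rose along them. Their trends were 0.22 ± 0.02, 0.10 ± 0.02 and 0.09 ± 0.02 log2 per gate (edgeR adjusted p = 0.00152, 0.022 and 0.0174). Tef, Per3 and Slc6a6 went with Dbp within gates and rose too, Slc6a6 by 0.14 ± 0.02 log2 per gate (edgeR adjusted p = 0.00467). Anxa3 and Ybx3 were not called along the gates.

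Tef was followed by Dbp (0.52), by Per3 (0.43), by Nr1d2 (0.30), the second Rev-erb gene, by Itm2b (0.28) and by BC028528 (0.27). Against it ran Cycs (-0.32), cytochrome c, Bcat1 (-0.29), Tubb4b (-0.28), a beta tubulin, Arntl (-0.27) and Lrrc59 (-0.27), a ribosome-binding protein of the endoplasmic reticulum. Per3 and Nr1d2 also rose along the gates (0.52 ± 0.03 and 0.64 ± 0.03 log2 per gate, SE, edgeR adjusted p = 0.000176 and 7.65e-05), and Arntl fell (-0.72 ± 0.03 log2 per gate, edgeR adjusted p = 4.01e-05). Other followers of Tef moved the opposite way along the gates. BC028528 fell like Itm2b (-0.15 ± 0.02 log2 per gate, edgeR adjusted p = 0.00454), and Cycs rose (0.16 ± 0.02, adjusted p = 0.00496), as did Bcat1 (0.09 ± 0.02, adjusted p = 0.0174). Of these 10 genes Bcat1 was negative in 7 of 8 blocks after thinning and the other 9 kept their sign in all 8.

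The 5 highest for Nfil3 were Mthfd2 (0.44), a mitochondrial folate enzyme, Ghitm (0.44), a mitochondrial inner membrane protein, Sars (0.43), the seryl-tRNA synthetase, Eif3c (0.43), a translation initiation factor, and Bcat1 (0.43). The lowest were Ank (-0.33), which exports pyrophosphate, Adarb1 (-0.32), an RNA-editing deaminase, Gstm2 (-0.32), a glutathione transferase, St13 (-0.32), a cochaperone of Hsp70, and Arhgap28 (-0.32). All 10 kept their sign in 8 of 8 blocks after thinning and given the total count. Of the 10, Sars fell along the gates (-0.14 ± 0.02 log2 per gate, SE, edgeR adjusted p = 0.00464) and Bcat1 rose (0.09 ± 0.02, adjusted p = 0.0174), and the other 8 were not called.

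Mthfd2, Sars and Bcat1 led to a look at the amino acid response, the program through which Atf4 raises amino acid synthesis, transport and tRNA charging genes. This list of 25 genes was drawn up after the followers of Nfil3 had been seen, so its counts support nothing by themselves. Of 24 members in at least 50% of cells, 22 were positive with Nfil3 in all 8 blocks, against 5.73% of all genes, and their median was 0.365 against 0.005 over all genes. Trib3 gave 0.42, Ddit3 0.41, Asns, the asparagine synthetase, 0.41, Phgdh, the first enzyme of serine synthesis, 0.41, and Slc7a5, an amino acid transporter, 0.40. Ddit4, an mTORC1 inhibitor, was the lowest at -0.02. With Dbp, 16 of the 24 were negative in all 8 blocks (7.59% of all genes), with Slc7a5 at -0.31 and Asns at -0.31, and with Tef 10 of the 24 were (3.85%). Along the gates 3 of 24 rose and 8 fell, against 6.78% and 8.64% of all genes, with a median of -0.01 log2 per gate against 0.0005 over all genes.

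**Figure D5:**
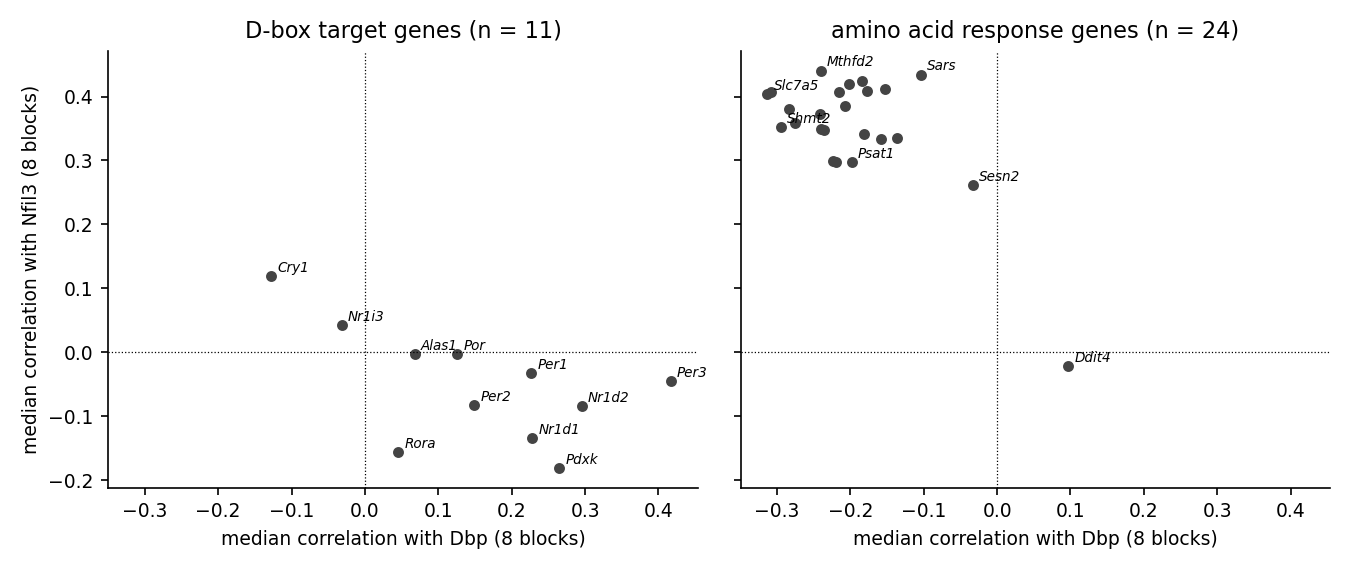
Median Spearman correlation of each gene with Dbp (x axis) and with Nfil3 (y axis) over 8 blocks, for 11 D-box target genes on the left and 24 amino acid response genes on the right, with selected genes labelled on the right. The D-box targets spread along the Dbp axis with Per3 furthest (0.42) and stay between -0.18 and 0.12 on the Nfil3 axis, while the amino acid response genes other than Ddit4 lie between 0.26 and 0.44 with Nfil3 and below 0 with Dbp.

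Most of the tested genes known as D-box targets rose along the gates. Of 15 listed, 13 were tested and 9 rose, against 6.78% of all genes, and 0 fell, with a median of 0.24 log2 per gate. The list holds Nr1d1, the axis of the sort, and several of its genes also carry E-boxes or ROR elements. Beside Nr1d1 (1.38 ± 0.02 log2 per gate, SE), Nr1d2 and Per3, the genes that rose were Per2 (0.70 ± 0.07), Per1 (0.36 ± 0.03), Rora (0.27 ± 0.03), Pdxk (0.24 ± 0.02), the pyridoxal kinase, Cry1 (0.13 ± 0.03) and Por (0.08 ± 0.02), the reductase that serves cytochrome P450 enzymes. Cry1 and Por were not called without the plate block (edgeR adjusted p = 0.159 and 0.0590), and without gate 1 Cry1 and Pdxk had 0.05 and 0.11 log2 per gate and were not called. Alas1, the first enzyme of heme synthesis, had 0.04 ± 0.03 log2 per gate and was not called (edgeR adjusted p = 0.419). The remaining tested genes Nr1i3, Abcb1a and Cyp7a1, best known from liver or transport, lay at 1.15, 0.321 and 0.964 CPM over all cells and were not called. Rorb had a read in 2 cells, and Ppara was not analysed here.

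Within gates 11 of the D-box targets could be followed. With Dbp, Per3, Nr1d2 (0.30) and Per1 (0.23) were positive in all 8 blocks (5.91% of all genes) and none was negative in all 8. With Tef the same 3 genes were, at 0.43, 0.30 and 0.21 (3.32% of all genes). With Nfil3, Pdxk was negative in all 8 (-0.18, against 4.42% of all genes) and none was positive in all 8. Per3 with Nfil3 had a median of -0.05 and was negative in 6 of 8. Cry1 was the one target whose median was lowest with Dbp (-0.13) and highest with Nfil3 (0.12).

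Other leucine zipper proteins that read the same or a like site were also followed along the gates. Hlf, the third PAR family activator, had a read in 18 of 762 cells and 0.229 CPM over all cells, so its trend was not measurable (-0.10 ± 0.39 log2 per gate, edgeR adjusted p = 0.904). Of 5 such genes tested, Hlf included, 0 rose, against 6.78% of all genes. So short a list is not set apart by that. In it 2 genes fell, against 8.64% of all genes. These were Cebpd (-0.17 ± 0.04 log2 per gate, edgeR adjusted p = 0.0311) and Ddit3, also called Chop (-0.22 ± 0.02, adjusted p = 0.00208). Without the plate block neither was called (edgeR adjusted p = 0.0745 and 0.159). Cebpb (0.00 ± 0.03) and Cebpg (-0.07 ± 0.02, adjusted p = 0.0694) were not called. Ddit3 and Cebpg were positive with Nfil3 in 8 of 8 blocks within gates, at 0.41 and 0.17, against 5.73% of all genes. Ddit3 was already counted above in the amino acid response list, drawn up after the followers of Nfil3 had been seen, so its value is not new here.

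Of the 11 genes of the E-box loop, which drives Dbp in the textbook clock, 8 rose and 1 fell along the gates, against 6.78% and 8.64% of all genes, with a median of 0.29 log2 per gate. Beside the period and cryptochrome genes already named, Ciart (0.87 ± 0.07 log2 per gate, SE), Bhlhe41 (0.60 ± 0.03), Cry2 (0.29 ± 0.03) and Bhlhe40 (0.22 ± 0.02), all repressors of that loop, rose, and Arntl fell. Within gates, Bhlhe40 was positive in 8 of 8 blocks with Dbp (0.21) and with Tef (0.23), and Bhlhe41 was in 8 of 8 with Tef (0.17). Over all genes, 5.91% were positive in all 8 blocks with Dbp and 3.32% with Tef. Of 7 genes of the ROR-element loop tested, 4 rose and Arntl fell, against 6.78% and 8.64% of all genes. Nfil3, which belongs to that loop by its regulation, fell beside Arntl. The 4 were Nr1d1, the axis of the sort, Nr1d2, Rora and Cry1, all counted above among the D-box targets. Arntl is also the gene that fell in the E-box loop, so this count repeats genes already counted. Per1, Per2, Per3 and Cry1 were likewise shared by the E-box loop and the D-box targets. Within gates Nfil3 with Arntl had a median of 0.04.

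Cell cycle genes and measures of the cell moved with some of these values, and their part in the results was not tested. Of 12 S phase genes 8 rose along the gates and of 12 G2/M genes 4 rose, against 6.78% of all genes, while within gates 7 of 10 S phase genes were negative with Dbp in all 8 blocks (7.59% of all genes). Their summed level had a median of -0.170 with Dbp, -0.168 with Tef and 0.023 with Nfil3. The mitochondrial share of counts was positive with Dbp in 8 of 8 blocks (median 0.179) and forward scatter negative in 7 of 8 (median -0.113). Plates 1 and 2 had median mitochondrial shares of 9.27% and 7.42%. The total count per cell had medians of 0.030, 0.055 and 0.087 with Dbp, Tef and Nfil3. Each gate filled the same 6 plate columns on both plates, so gate and column cannot be told apart.

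Dbp overlaps Sphk2 on the opposite strand by 737 bases at their 3' ends (GENCODE M21), and the use of strand in counting is not given in the sources used here, so reads in the overlap are uncertain. Sphk2 changed by -0.09 ± 0.03 log2 per gate (edgeR adjusted p = 0.0762), opposite in sign to Dbp, and its median correlation with Dbp within gates was 0.148. Tef overlaps the predicted gene Gm17597 on the opposite strand by 193 bases. No gene of that annotation overlaps Nfil3.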

How the data were processed

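Gene counts of 768 single cells on 2 plates were deposited as whole numbers by the authors. The submitters' processing notes name STAR 2.7.11a, SAMtools, bedtools and HTSeq, and the builds GRCm39 and mm39, while annotation release and strand are not given in the sources used here. The sorting record deposited by the authors held fluorescence and scatter intensity per cell in arbitrary units. Cells with at least 1000 genes, 0.1 of the plate median total and at most 25% mitochondrial counts were kept (762), with no doublet caller, and summed per plate and gate. The 8 sums entered a quasi-likelihood fit of gates plus plate (R 4.3.3, edgeR 4.0.16, TMM scaling, filterByExpr, threshold 0.05 on adjusted p), and other weights of the same fit gave steps and curvature. DESeq2 1.42.0 and limma 3.58.1 served as alternatives. The fit was tested on simulated data. Ratios were tested by exact permutation, and Spearman correlations ran within the 8 plate and gate blocks. Genes named as followers were the 5 highest and 5 lowest medians with 1 sign in all 8 blocks, leaving out predicted, mitochondrial and ribosomal protein genes. Members and lists were chosen with earlier results of these data known. Promoter windows came from RefSeq (GRCm38.p6). No protein sequence was used here.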

Additional observations from a re-analysis of the deposited data

Results flagged for a closer look

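Nfil3 moved in opposite directions on the plates between gates 1 and 2. It changed by -0.15 log2 on plate 1 (21.6 to 19.5 CPM) and by 0.34 log2 on plate 2 (16.0 to 20.3 CPM), a difference of -0.49 log2 between the plates. Plate and iRFP sort cannot be told apart, and the difference at this step was not tested.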

How the results depend on the processing

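The plate is a replicate block in the fit of the gates. Without the replicate block the trend count fell from 2843 to 1683 genes, Nfil3 was -0.39 log2 per gate (adjusted p = 0.0655), the Tef step from gate 2 to 3 was 0.80 log2 (0.390), the Dbp step from gate 3 to 4 was 0.50 log2 (0.131), and the counts for the 3 steps and curvature were 3, 5, 2 and 0 against 50, 12, 48 and 120. It changed no other call on the 3 genes. Without gate 4 Nfil3 was -0.34 log2 per gate (0.346) and the trend count 237. Without gate 1 the count was 1003, and with a straight line over the gates 1858. With 1 plate left out, slopes were 0.72 to 0.75 for Dbp, 0.52 to 0.57 for Tef and -0.51 to -0.32 for Nfil3, with 2 to 383 genes called. Plate 1 alone kept the calls of Dbp and Tef (0.0172 and 0.00525) and plate 2 alone did not (0.0610 and 0.0523), with 2 residual degrees of freedom in each. Ratio slopes were 1.05 to 1.25 for Dbp over Nfil3, 0.89 to 1.01 for Tef over Nfil3 and 0.15 to 0.23 for Dbp over Tef, where 1 plate cannot pass the threshold. Step counts rose with DESeq2 (718, 231, 979, and 1020 for curvature), without the filter beyond 1 count (371, 95, 442 and 530) and with thinned cells (223, 43, 280 and 376). Under these 3 in turn the Tef step from gate 1 to 2 was called at 0.39 log2, 0.38 log2 and 0.39 log2, and the step from gate 3 to 4 at 0.36 log2, 0.35 log2 and 0.36 log2. DESeq2 also called the Nfil3 step from gate 2 to 3 (-0.82 log2, adjusted p = 0.0173). Tef curvature, near 0 at -0.01, turned to 0.0036 with library totals alone. For the correlations within gates, thinning gave 0.448 for Dbp with Tef and the Venus fluorescence term 0.502. Whole plates gave 0.724, -0.400 and -0.336 for the 3 pairs. Leaving out 1 plate gave 0.507 to 0.525 for Dbp with Tef, -0.256 to -0.161 for Dbp with Nfil3 and -0.264 to -0.0999 for Tef with Nfil3. Of 204 alternatives for 17 other genes named along the gates 43 lost a call, and of 60 for the followers 8 moved beyond the spread of the plates, with 0 reversed in either group. The causes were not tested.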

Other observations

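Immediate early genes, which respond to growth factors and stress within minutes, showed a weak relation to Nfil3 as a sum and were split singly. Their summed level was positive with Nfil3 in 8 of 8 blocks, with a median Spearman correlation of 0.173 and a range from 0.053 to 0.276. With Dbp it was negative in 7 of 8 blocks (median -0.139) and with Tef in 7 of 8 (median -0.110). The 10 genes that could be followed singly had medians of 0.022 with both Dbp and Tef. With Nfil3 their median was 0.083, from -0.10 for Ier3 to 0.24 for Klf4. Junb, Egr1 and Ier3 had medians below 0 with Nfil3 and the rest above it. Klf4 and Btg2 were positive with Nfil3 in all 8 blocks, against 5.73% of all genes. Klf4 had the highest level of the list, at 267 CPM over all cells, and so the largest part of the sum. Klf4 had -0.23 with Dbp and was negative in 8 of 8 blocks, against 7.59% of all genes. Ier3 had 0.18 with Dbp and 0.23 with Tef and was positive in 7 of 8 with each. Along the gates 1 of the 12 listed genes rose and 3 fell, against 6.78% and 8.64% of all genes.

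Fibroblast markers were also followed within gates. Pdgfrb, the receptor of platelet-derived growth factor, was positive with Dbp (0.20) and with Tef (0.22) in 8 of 8 blocks, and Fn1, fibronectin, was positive with Dbp (0.27) in 8 of 8. Over all genes, 5.91% were positive in all 8 blocks with Dbp and 3.32% with Tef. With Nfil3 the markers were split. Fn1 (-0.21) and Vim (-0.08) were negative in 8 of 8 blocks, and Thy1 (0.27), Col1a1 (0.23) and Sparc (0.11) were positive in 8 of 8. Over all genes, 4.42% were negative and 5.73% positive with Nfil3 in all 8 blocks. Of the 8 fibroblast markers, 2 rose and 5 fell along the gates, against 6.78% and 8.64% of all genes.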
